A study of Mus musculus with 48 samples.

Results

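The sites described here are known A-to-I editing positions that the deposited tables annotate as intronic and that had more than 100 reads in at least 1 of 48 libraries. There were 1057 such sites among 7339 positions of any annotation that met the same coverage rule, and they lay in 56 genes. The tables list 48715 positions, 26987 of them intronic. The libraries were made by mmPCR-seq, a microfluidic multiplex PCR of cDNA around known editing sites, followed by sequencing. A sequencer reads inosine as G, and the level given for each site is its percentage of reads with G where the genome has A. The mice were male, C57BL/6 and 12 weeks old, and of 2 genotypes. Controls, called WT, were Adar1+/+ Ifih1-/-, and the mutants, called E861A, were Adar1E861A/E861A Ifih1-/-. The E861A allele encodes an ADAR1 protein that cannot deaminate adenosine, and the mice were homozygous for it. All animals, controls included, lacked MDA5, the cytosolic sensor of double-stranded RNA encoded by Ifih1. Each genotype had 3 libraries, 1 per biological replicate, in each of 8 tissues: brain, heart, liver, kidney, small intestine, spleen, thymus and bone marrow (BM).

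Adenosine deaminases act on double-stranded RNA, and an intron can supply such a structure when it pairs with an inverted copy of itself or with a neighbouring exon. Introns are removed from most transcripts, so an intronic site can be read only from unspliced RNA or from a transcript that keeps the intron. Both ADAR1 and ADAR2, the product of Adarb1, are active deaminases, and ADAR2 recodes glutamate receptor subunits in neurons. ADAR2 also edits an intron of its own pre-mRNA and so creates an alternative 3′ splice site.

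The annotation of the tables differed from GENCODE vM1, a gene annotation of the same build (mm9, NCBIM37). Every one of the 1057 sites lay within a GENCODE gene on its own strand, but 915 (86.6%) overlapped an exon of at least 1 transcript. Of all sites, 511 (48.3%) lay in a transcript classed as a retained intron, 207 (19.6%) in a UTR of a protein-coding transcript, 191 (18.1%) in other non-coding or nonsense-mediated decay transcripts, 6 in a coding exon and 142 (13.4%) in no exon at all. The sites are therefore called intronic by the annotation of the tables alone. They fell in tight stretches, with a median of 18 sites per gene, and a median span of 163.5 bases in the 52 genes with at least 5 sites. The largest numbers were in Taz (58), Eps8l1 (48), Homer1 (39) and Ifnar1 (37).

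The sites on which the comparisons turn follow with 10 bases on either side, 5′ to 3′ on the transcribed strand of mm9, with the edited base in capitals. They were chosen because they passed a test between genotypes or between tissues, or carried the highest level of their gene. The Adarb1 sites lie in the intron of the ADAR2 gene itself, and the Gria3 and Grik2 sites in genes of ionotropic glutamate receptor subunits.
Adarb1 76786805 (chr10:76786795-76786815, minus strand): ggaggatgttAtaaatgaaaa
Adarb1 76786829 (chr10:76786819-76786839, minus strand): ggagtaacctAccggtctttt
Adarb1 76786797 (chr10:76786787-76786807, minus strand): ttataaatgaAaatttagtgc
Specc1 61954893 (chr11:61954883-61954903, plus strand): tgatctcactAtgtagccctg
Specc1 61954912 (chr11:61954902-61954922, plus strand): tgactggtctAgaactcacta
Zkscan3 21481802 (chr13:21481792-21481812, minus strand): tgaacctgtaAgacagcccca
Zkscan3 21481803 (chr13:21481793-21481813, minus strand): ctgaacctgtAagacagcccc
Gria3 39007465 (chrX:39007455-39007475, plus strand): ccgtgttgttAtagtattcca
Grik2 48962350 (chr10:48962340-48962360, minus strand): ggatacatgaAagaggaaccc
Dusp11 85905363 (chr6:85905353-85905373, minus strand): ctgacttcaaActcaagatta
Dusp11 85905365 (chr6:85905355-85905375, minus strand): ggctgacttcAaactcaagat
Taz 71531186 (chrX:71531176-71531196, plus strand): taggtgaattAccatgagttt
Fnbp1 30885904 (chr2:30885894-30885914, minus strand): agatgaaggtAgatctgtcag
S100pbp 128858467 (chr4:128858457-128858477, minus strand): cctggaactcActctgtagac
Ppp1r12b 136676115 (chr1:136676105-136676125, minus strand): tgacatccctAgacaggtgga

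Coverage summed over all positions ranged from 1861831 (BM WT replicate 2) to 11394093 (heart E861A replicate 3), and intronic sites took 6.11% (brain WT replicate 2) to 13.6% (small intestine WT replicate 2) of it. Up to 996 intronic sites per library (BM WT replicate 3) had more than 100 reads, with a median of 826.5 and the fewest in BM WT replicate 2. Brain libraries had 343 to 771 such sites and spleen libraries 914 to 965. As a check of the tissue labels, amplicons of Gria2, the AMPA receptor subunit GluA2, had a median coverage of 2732 to 6921.5 reads in brain libraries, while the other libraries had a median of 3 and a highest value of 1593.5. Gria4, Grik2, Htr2c, Cadps and Unc80 likewise had every brain library above all others. Gria3, Gabra3 and Kcna1 did not separate brain. Kcna1 had 893 to 1824 reads in brain, against a median of 580.5 and a highest value of 2112 elsewhere. Coverage after multiplex PCR is not an expression level. Several WT libraries stood apart in editing as a whole. At sites of all other annotations the mean level was 1.02% in thymus WT replicate 3 against 5.18% and 10.7% in the other thymus WT libraries, 0.969% in small intestine WT replicate 2 against 11.2% and 6.20%, and 2.33% in heart WT replicate 2 against 10.3% and 5.85%. The E861A libraries of these tissues lay between 0.456% and 1.75% at the same sites. The thymus and small intestine libraries named were thus within or near the E861A values, and whether they carry the labelled genotype cannot be told from the values used here. The main counts and differences in these 3 tissues are also given without the library named.

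Coverage in a tissue required more than 100 reads in at least 2 libraries of each genotype, and a covered site was called edited when the level from the pooled reads of either genotype exceeded 1%. By this rule 984 of the 1057 intronic sites were covered in at least 1 tissue, 257 in all 8, and 226 were edited in at least 1 tissue. The edited sites made up 23.0% of covered intronic sites and 26.6% of covered sites of other annotations. They lay in 47 genes. Of the 226, 66.8% were edited in exactly 1 tissue, against 52.1% of the edited sites of other annotations. A further 25 intronic sites were edited in 2, 17 in 3, and 4 in 7. A site edited in all 8 tissues was not found. At the coverage limit, the sites just inside had a highest coverage of 102 and 103 reads (both S100pbp) and 106 reads (Neil1), and the ones just outside 100 (Pdcd2), 97 (Homer1) and 97 reads (Prpsap1). A further 9 genes had intronic sites and no edited one. Of these, Homer1 (39 sites), Atp11b (13), Tpst1 (7), Neil1 (1) and Arl6ip4 (1) were covered in no tissue by the rule, and Chka (18), Pcmt1 (11), Cpne6 (10) and uc009ozn.1 (5) had each site covered in at least 1 tissue and none above 1%. Of the 73 sites that were covered nowhere, 4 reached a level over 20% in a library. Those were Spnb2 30001758 (99.3%) and Pwwp2a 43531230 (all reads edited), each read in 1 brain WT library alone, and 2 Atp11b sites, which reached 48.0% and 20.1% among 5 libraries.

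Brain held the most edited intronic sites although it had the fewest covered ones. In brain 112 of 396 covered sites were edited (28.3%, against 19.6% of covered sites of other annotations). In liver 59 of 473 were edited (12.5% against 14.2%), in kidney 54 of 696 (7.76% against 10.8%), in BM 47 of 627 (7.50% against 11.0%) and in heart 62 of 864 (7.18% against 7.26%). Fewest were found in spleen, with 35 of 918 (3.81% against 4.44%), thymus, with 31 of 962 (3.22% against 9.00%), and small intestine, with 18 of 637 (2.83% against 8.74%). Without the WT library that stood apart the counts were 35 of 806 in thymus (4.34%), 12 of 572 in small intestine (2.10%) and 60 of 722 in heart (8.31%). Of the brain sites, 52 were edited in no other tissue, and all 52 were covered elsewhere. Of the sites edited outside brain, 35 were covered but not edited in brain and 79 were not covered there. The genes with the most edited sites in brain were S100pbp (12), Taz (10), Adarb1 (10), Zkscan3 (10), Hp1bp3 (9) and Dusp11 (9). Among the edited intronic sites, high levels were most frequent in brain, where 44 of 112, in 17 genes, had a mean over 10% in WT or E861A. The counts were 14 of 59 in liver, 6 of 54 in kidney, 5 of 47 in BM, 5 of 62 in heart, 2 of 31 in thymus and 0 in spleen and small intestine. Sites of other annotations were not counted in this way, so the pattern is not shown to be particular to intronic sites. Without the WT library that stood apart there were 9 in heart, 3 in thymus and 3 in small intestine.

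**Figure D1:**
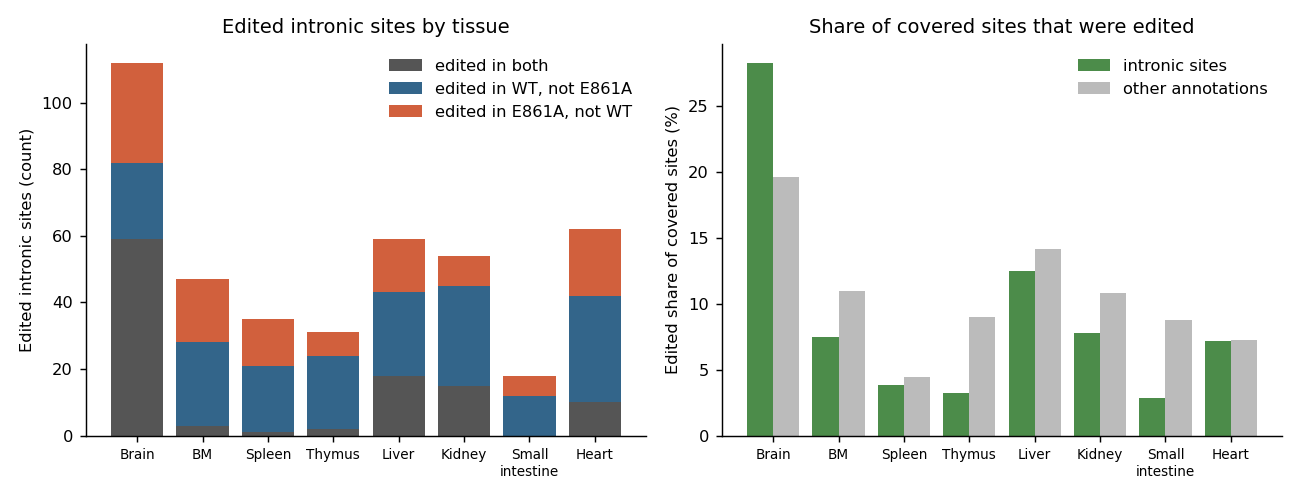
Left, the number of edited intronic sites in each tissue (y axis, count), split into sites edited in WT and E861A, in WT and not E861A, and in E861A and not WT; right, the percentage of covered sites that were edited, for intronic sites and for sites of other annotations. In brain 59 sites were edited in both genotypes, against 0 to 18 in each of the other tissues.

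The sets of edited sites were next compared between genotypes. The brain WT set held 82 intronic sites and the E861A set 89, and 59 were shared, so that 72.0% of the WT set remained in the E861A set (68.4% at sites of other annotations). In liver 18 of 43 WT-edited sites were also edited in E861A, in kidney 15 of 45, in heart 10 of 42, in BM 3 of 28, in thymus 2 of 24, in spleen 1 of 21 and in small intestine 0 of 12. The share kept was above that of other annotations in liver (41.9% against 30.1%), kidney (33.3% against 26.5%), heart (23.8% against 13.4%), BM (10.7% against 7.48%) and thymus (8.33% against 5.28%), and below it in spleen (4.76% against 9.81%) and small intestine (0.0% against 5.61%), with no test. Without the WT library that stood apart the shared sites were 3 of 31 in thymus, 0 of 7 in small intestine and 10 of 44 in heart. Over the 7 tissues other than brain, 49 of 215 site and tissue entries (22.8%) were kept, against 15.4% at sites of other annotations. The E861A sets held 140 such entries. Many entries rested on a single library, 138 of the 215 in WT and 108 of the 140 in E861A. Of the WT-edited sites, 43 of 82 in brain exceeded 1% in only 1 library, as did 19 of 28 in BM, 23 of 43 in liver, 19 of 45 in kidney, 34 of 42 in heart, 15 of 24 in thymus, 16 of 21 in spleen and 12 of 12 in small intestine. At sites of other annotations the same share was 37.6% in brain, 49.3% in BM, 41.7% in liver, 24.2% in kidney, 70.4% in heart, 38.5% in thymus, 41.1% in spleen and 85.7% in small intestine. When at least 2 libraries of a genotype had to exceed 1%, a rule chosen after the data were seen, brain kept 39 WT-edited and 60 E861A-edited sites, liver 20 and 8, kidney 26 and 8, BM 9 and 4, thymus 9 and 2, heart 8 and 4, spleen 5 and 5, and small intestine 0 and 1. Without the WT library that stood apart, 22 of 31 WT-edited sites in thymus, 7 of 7 in small intestine and 36 of 44 in heart exceeded 1% in 1 library, and at least 2 libraries did so at 9, 0 and 8 sites.

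Mean levels over the edited intronic sites that were read in all 6 libraries of a tissue were as follows, with the mean ± SD of 3 libraries and no test. In brain, over 91 sites, WT libraries had 12.8%, 10.3% and 9.31% and E861A libraries 6.61%, 7.91% and 7.58%, so the genotypes did not overlap (10.8% ± 1.81 against 7.37% ± 0.673). In kidney, over 43 sites, they had 4.64%, 3.64% and 5.55% in WT and 0.464%, 3.14% and 3.27% in E861A, without overlap. BM WT libraries had 12.2%, 3.27% and 5.99% against 0.299%, 0.609% and 1.71% in E861A, without overlap, but only 8 sites could be used because BM WT replicate 2 was shallow. With more than 500 reads required, only 3 BM sites remained, and the difference turned from -6.30 to 1.35 percentage points. It was -3.53 without WT replicate 1 and -3.51 without WT replicate 2. In liver the mean over 48 sites was higher in E861A without a separation of the genotypes. There the WT libraries had 3.08%, 4.66% and 3.62% and the E861A libraries 3.97%, 4.99% and 6.66%, which overlap. The difference was 1.42 percentage points, but 0.489 without E861A replicate 3 and 0.731 with reads pooled over sites, and 33 of the 59 edited liver sites had a negative change on the log2 ratio scale of the test. At sites of other annotations the liver mean was 10.1% ± 2.84 in WT and 2.89% ± 0.0943 in E861A. In spleen, thymus, small intestine and heart the intronic means of the genotypes overlapped. At sites of other annotations the highest E861A mean was under the lowest WT mean in all tissues except small intestine, where the genotypes overlapped. In spleen the intronic difference, E861A minus WT, was -0.39 percentage points, and -0.11 without E861A replicate 2, -0.22 without WT replicate 3 and -0.65 without WT replicate 1. The mean difference, E861A minus WT, was -2.63 percentage points in thymus and -3.54 without WT replicate 3. In small intestine it was -2.73, and -4.83 without WT replicate 2 but -0.035 without WT replicate 1. In heart it was -1.50, and -2.86 without WT replicate 2 but -0.054 without WT replicate 1.

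Each edited site was then compared between genotypes within its tissue with limma. The values were log2((level + 0.01)/(1 − level + 0.01)), and p-values were adjusted by Benjamini-Hochberg over every edited site of the tissue, whatever its annotation. On this log2 ratio scale a negative change means a lower level in E861A. A tissue sample mixes cell types, so a lower level in every cell and editing in fewer cells cannot be told apart. Of 418 site and tissue pairs tested, 6 were lower in E861A at an adjusted p under 0.05 and 0 were higher. In BM 5 of 47 intronic sites passed as lower, where 27.0% of the 538 edited sites of any annotation did, and 0 passed as higher (0.0% of all). With a library left out the BM count was 2 to 6 (2 without WT replicate 1 or 3), and on untransformed levels it was 0. In kidney 1 of 54 passed as lower (17.1% of all 532), and 0 as higher (0.0%). With a library left out the kidney count of lower sites was 0 to 8 (8 without WT replicate 3). None passed in liver (0 of 59 lower, against 9.75% of all 677, and 0.0% higher) or spleen (0 of 35, against 8.45% of all 284 lower and 0.704% higher). In brain (112 sites), thymus (31), small intestine (18) and heart (62) 0 passed in either direction, and the share over all sites was likewise 0.0%. At an unadjusted p under 0.05, limma found 3 lower and 3 higher intronic sites in brain (4.83% and 2.10% of all 808 sites) and 2 lower in liver (18.5% of all). It found 0 in spleen, where 20.8% of all sites were lower and 1.06% higher. It also found 0 in thymus (14.2% and 0.0% of all), small intestine (0.484% and 0.0%) and heart (4.71% and 0.0%). A quasi-binomial model of the reads called 0 intronic sites in each of these 6 tissues, and its share over all sites is not given here. A single limma fit over all 48 libraries called more, with 15 lower and 20 higher in brain (15.3% and 11.5% of all sites) and 9 and 9 in BM (40.3% and 6.69%). Without thymus WT replicate 3, which stood near the E861A libraries, 5 of 35 intronic thymus sites passed as lower, where 39.8% of all 560 sites did. Leaving out heart WT replicate 2 or small intestine WT replicate 2 gave 0 intronic sites, where 0.0% and 0.581% of all sites passed.

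The median change over the intronic sites was nearer 0 than the median over all edited sites in BM (-0.59 against -1.31), liver (-0.53 against -1.02), kidney (-0.95 against -1.26), spleen (-0.53 against -0.90), thymus (-0.86 against -1.19), small intestine (-0.64 against -1.04) and heart (-0.61 against -0.83), and lay further from 0 in brain (-0.44 against -0.12). Without the WT library that stood apart the medians were -1.03 against -1.62 in thymus, -0.69 against -1.29 in small intestine and -0.88 against -1.11 in heart. In kidney the E861A levels were all under the lowest WT level at 14 of 54 intronic sites (41.9% of all sites) and over the highest at 1 (0.752%). In liver they lay below at 7 of 59 (31.9% of all) and above at 2 (1.92%), and in BM below at 7 of 47 (42.4%) and above at 8 (5.39%). In brain they lay below at 9 of 112 sites (11.6% of all) and above at 10 (8.42%). In thymus the counts were 6 below and 1 above (27.4% and 2.27% of all), in spleen 1 and 2 (26.4% and 2.82%), in heart 1 and 5 (10.8% and 5.38%) and in small intestine 1 and 5 (13.1% and 6.30%). Without the WT library that stood apart, thymus had 16 below and 1 above (60.4% and 2.68% of all), small intestine 0 and 4 (18.0% and 7.27%) and heart 5 and 3 (25.6% and 4.66%). These counts use the covered libraries of each site.

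**Figure D2:**
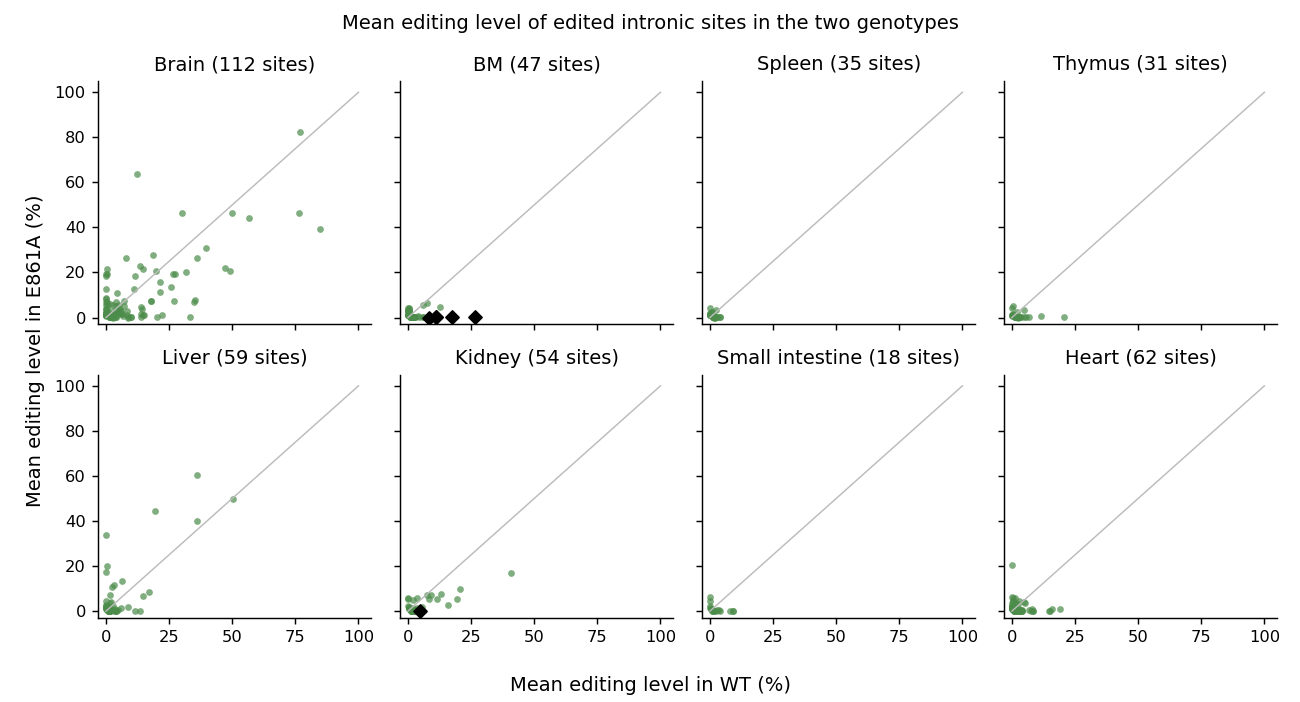
Mean editing level of each edited intronic site in WT (x axis, %) and E861A (y axis, %), 1 panel per tissue. Each point is a site, black diamonds are the 6 pairs lower in E861A at an adjusted p under 0.05, and the grey line marks equal levels. High levels in both genotypes are seen in brain and liver, and the 5 BM diamonds lie at the foot of the panel.

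The called sites lay in 3 genes. On untransformed levels none of the 6 pairs passed (limma adjusted p = 0.0818 to 0.225). Specc1, which encodes a coiled-coil protein of the cytospin family, held 3 of the 6 called pairs. At Specc1 61954893 the BM libraries of WT had 24.0%, 12.5% and 15.7%, against 0.0590%, 0.275% and 0.261% for E861A (17.4% ± 5.93 against 0.198% ± 0.121, SD, n = 3 each, from 359 to 2297 reads). Each WT library was far above each E861A library, and the change was -4.17 on the log2 ratio scale (SE 0.45, limma adjusted p = 0.00126). At Specc1 61954912, 19 bases further on, the BM libraries of WT had 43.9%, 11.4% and 23.9%, against 0.410%, 0.0549% and 0.0435% for E861A (change -4.83, SE 0.68, limma adjusted p = 0.00264). In kidney, Specc1 61954893 was read at 2.36%, 5.54% and 5.89% in WT and at 0.0754%, 0.197% and 0.00% in E861A (change -2.36, SE 0.53, limma adjusted p = 0.0240), again without overlap. That call was lost without WT replicate 2 (limma adjusted p = 0.0641) and without any one of the E861A libraries (0.0701 to 0.0959). It was not made by the quasi-binomial model (adjusted p = 0.0531) or by the fit over all 48 libraries (limma adjusted p = 0.0631). Nor was it made with an offset of 0.05 (limma adjusted p = 0.102) or with the replicate number as a block (0.0586).

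The change at Specc1 61954912 was not shown to differ between brain and any of 6 other tissues (interaction contrast, limma adjusted p = 0.134 to 0.823). Without WT replicate 2 the contrast with BM passed at Specc1 61954912 (limma adjusted p = 0.0376) and at Specc1 61954893 (0.0469). In kidney Specc1 61954912 was read at 13.6%, 22.4% and 11.5% in WT and at 0.00%, 3.16% and 4.73% in E861A, without overlap. It narrowly missed the threshold there (change -2.71, limma adjusted p = 0.0547). In brain the E861A libraries had 46.5%, 45.7% and 46.4%, within 1 percentage point of each other, while the WT libraries had 0.165%, 69.7% and 20.3% and lay on either side of them (limma adjusted p = 0.701). In heart a single WT library had 44.7% and the other 5 libraries 0.0521% to 0.210%. In small intestine a single WT library had 28.0% and the other 5 at most 0.127%. In thymus the order of the means was the opposite, with 0.56% in WT and 4.985% in E861A. The spleen means were 2.2% in WT and 0.419% in E861A. All 19 intronic Specc1 sites lie in a UTR of a protein-coding transcript in GENCODE.

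Zkscan3, a zinc finger gene with KRAB and SCAN domains, held a pair of adjacent called sites. In BM, Zkscan3 21481803 was read at 14.4% and 7.60% in WT and at 0.163%, 0.0877% and 0.418% in E861A (change -3.41, SE 0.56, limma adjusted p = 0.00760). Zkscan3 21481802 was read at 14.7% and 7.70% in WT and at 0.330%, 0.445% and 0.211% in E861A (change -3.31, SE 0.55, limma adjusted p = 0.00796). Neither had more than 100 reads in BM WT replicate 2, so the fit used 2 WT libraries, and with either of these left out the sites could no longer be tested. With more than 50 reads required, which brought in BM WT replicate 2, neither site passed (limma adjusted p = 0.247 and 0.271). In liver, WT had 8 edited Zkscan3 sites and E861A 0. There Zkscan3 21481802 had 7.06%, 3.56% and 3.15% in WT and 0.298%, 0.345% and 0.404% in E861A, without overlap (change -2.05, limma adjusted p = 0.124). In brain, 9 Zkscan3 sites were edited in each genotype and 8 of them were shared. In WT brain Zkscan3 21481802 had 0.353%, 27.0% and 13.7%, and in E861A brain 2.75%, 7.27% and 4.46%.

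The third gene was Gria3, which encodes the AMPA receptor subunit GluA3. Of its 7 intronic sites, 1 was edited. In BM, Gria3 39007465 was read at 11.3% and 5.41% in WT and at 0.00% in each of the 3 E861A libraries (change -3.27, SE 0.58, limma adjusted p = 0.0103), with 135 to 983 reads per library. The call was lost without any one of the E861A libraries (limma adjusted p = 0.0558 to 0.0580), and with either WT library left out the site could no longer be tested. In brain the 2 covered WT libraries had 1.65% and 26.3%, and the E861A libraries had 0.00%, 0.0942% and 0.00% (limma adjusted p = 0.653). GluA3 is a neuronal receptor subunit, and its amplicons were also read outside brain, with a median coverage of 406.25 reads there against 312 to 1437.5 in brain.

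**Figure D3:**
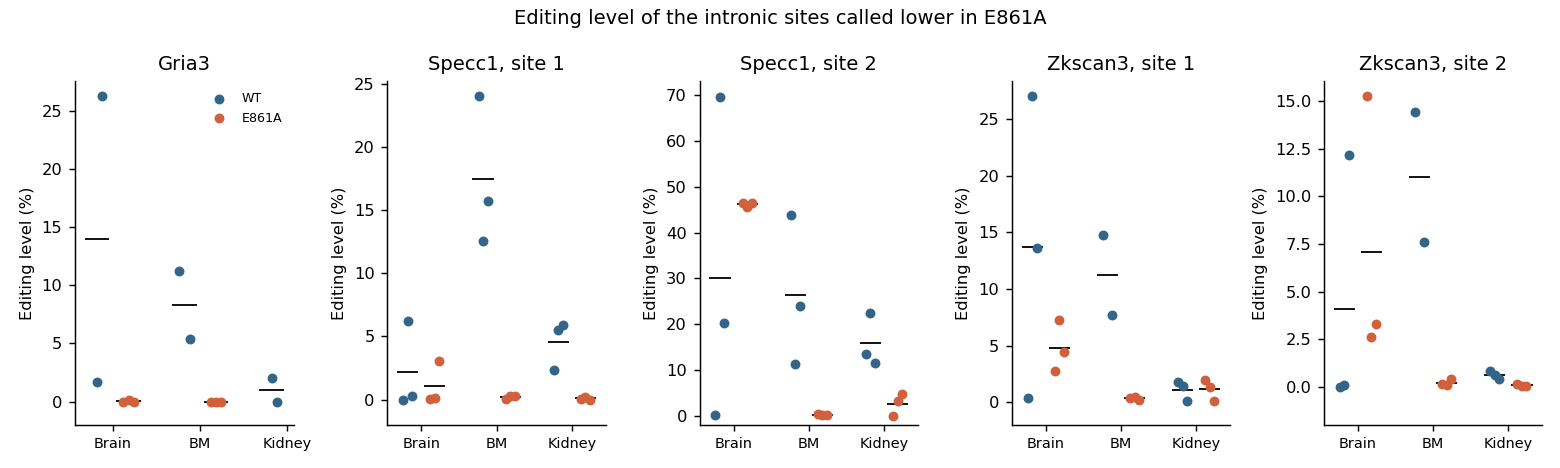
Editing level (y axis, %; scales differ between panels) of the 5 sites called lower in E861A in BM, of which the first Specc1 site was also called in kidney, shown for each library of brain, BM and kidney. Points are libraries with more than 100 reads and bars are genotype means. The BM E861A points lie at or below 0.445% in every panel, and the brain points of the genotypes overlap at Specc1 and Zkscan3.

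Adarb1 itself, the gene of ADAR2, carried a stretch with high levels in brain, liver and kidney, and was edited in 7 tissues. Its 17 intronic sites span chr10:76786709-76786842, inside the intron between the exons chr10:76788611-76788685 and chr10:76784394-76785328, in a stretch that GENCODE holds only in a retained-intron transcript. Transcripts of the nonsense-mediated decay and retained-intron classes carry a downstream exon that starts 47 bases earlier, at 76785375. For 11 of the 12 edited sites, the best antisense match of the surrounding 61 bases within 2000 bases lay 1410 to 1492 bases downstream, with 31 to 43 matching positions over 46 to 58, and was centred between 76785350 and 76785387. That interval includes the edge of the longer exon.

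Adarb1 76786805 was the site with the highest mean over WT tissues in its gene. In brain it was read at 99.8%, 52.1% and 79.2% in WT and at 85.6%, 77.9% and 83.8% in E861A (77.0% ± 24.0 against 82.4% ± 4.04, SD, n = 3 each, from 636 to 1866 reads). The brain genotypes overlapped (change -0.63, SE 1.57, limma adjusted p = 0.874). In liver it was read at 41.8%, 39.8% and 27.1% in WT and at 55.0%, 57.3% and 69.1% in E861A, so that all E861A libraries were higher, without passing the test (change 1.43, SE 0.83, limma adjusted p = 0.383). In kidney the order was the opposite, with 32.1%, 40.8% and 49.1% in WT and 0.00%, 27.4% and 23.0% in E861A, again without overlap and without passing (change -2.70, SE 1.34, limma adjusted p = 0.203). In thymus, small intestine and heart a single WT library each reached 32.5%, 27.9% and 23.4%, the other WT libraries had at most 1.87%, and the E861A libraries had at most 2.34%. In BM 1 WT library (14.8%) and 1 E861A library (19.4%) were edited and the others had at most 0.583%, and in spleen the means were 0.140% in WT and 0.217% in E861A.

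The neighbouring Adarb1 sites varied more. Adarb1 76786829 had brain levels of 99.8%, 15.1% and 54.5% in WT and 47.1%, 46.9% and 38.4% in E861A, and kidney levels of 9.92%, 18.2% and 33.8% in WT and 0.00%, 10.1% and 19.0% in E861A. At Adarb1 76786797 the E861A brain libraries had 21.9%, 32.0% and 24.8%, whereas the WT libraries had 0.170%, 0.00% and 23.4% (change 3.45, SE 1.43, limma adjusted p = 0.653). Without WT replicate 3 it passed as higher in E861A, the only intronic site to do so in brain when a library was left out. In brain WT replicate 1 the sites 76786805, 76786813 and 76786829 all stood at 99.8%, and 76786833, 76786834 and 76786840 at 58.3%, 58.1% and 58.5%. Such shared levels were not seen at these sites in WT replicate 2, where 76786805, 76786813 and 76786829 had 52.1%, 0.0835% and 15.1%.

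**Figure D4:**
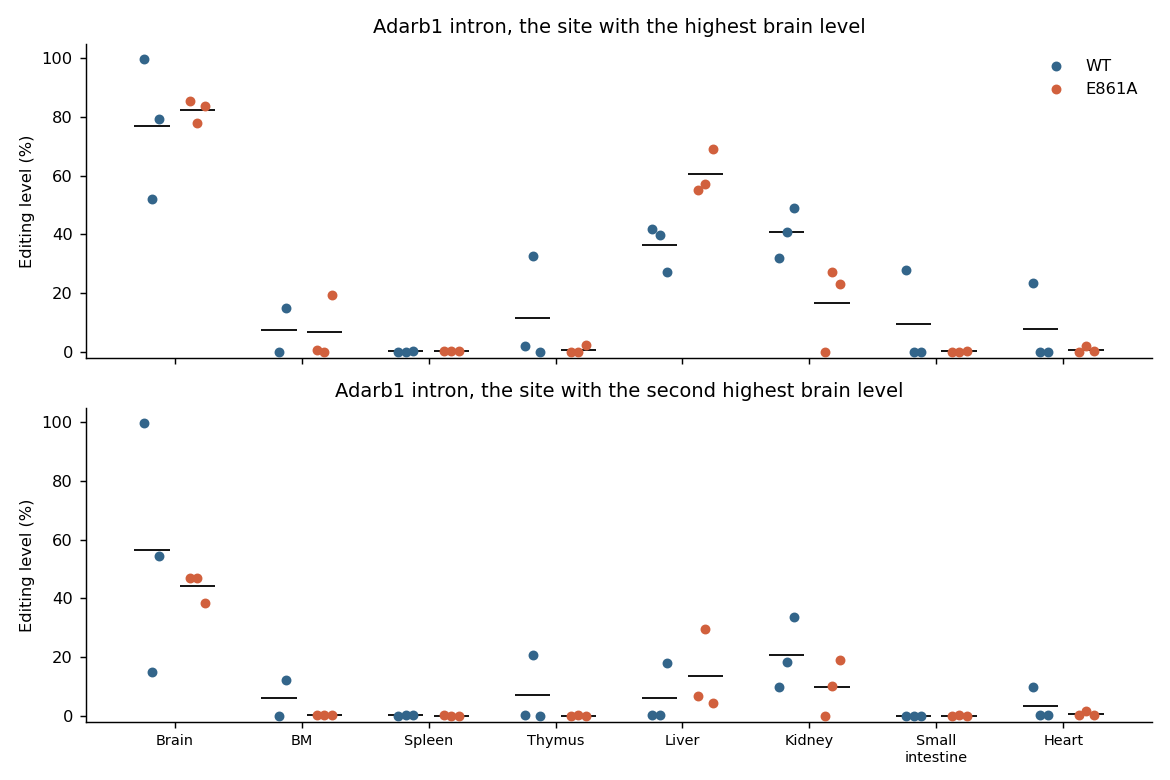
Editing level (y axis, %) of Adarb1 76786805 (top) and Adarb1 76786829 (bottom) in each library, by tissue. Points are libraries with more than 100 reads and bars are genotype means. Brain, liver and kidney are the tissues in which at least 2 libraries of each genotype lay above 15% at the upper site.

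Of the genes of neuronal receptors and channels that ADARs are known to edit, Gria2, Gria4, Gabra3, Htr2c, Cacna1d and Kcna1 had no site among the 1057. Grik2, which encodes the kainate receptor subunit GluK2, had 17 intronic sites, of which 8 were edited. WT brain had 3 edited Grik2 sites and E861A brain 7. Grik2 48962350 had 0.00%, 38.0% and 17.8% in WT and 35.8%, 25.9% and 22.2% in E861A (limma adjusted p = 0.701), so that all E861A libraries lay within the WT range. Grik2 48962343 had 32.3%, 5.52% and 3.39% in WT and 0.638%, 1.78% and 2.59% in E861A, which do not overlap (change -2.16, SE 1.08, limma adjusted p = 0.701). Unc80, a subunit of the NALCN sodium leak channel complex, had 8 sites, of which 2 were edited. Unc80 66718450 had brain levels of 0.406%, 0.198% and 32.8% in WT and 20.6%, 8.41% and 9.32% in E861A (limma adjusted p = 0.701).

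Other brain stretches differed in how closely their replicates lay. Dusp11, a phosphatase that acts on the 5′ ends of RNA, had replicates that lay close at its highest site. Dusp11 85905365 had 32.6%, 40.6% and 35.3% in WT and 21.6%, 28.2% and 30.1% in E861A, lower in each E861A library but not past the test (change -0.63, SE 0.52, limma adjusted p = 0.701). At a distance of 2 bases, Dusp11 85905363 had 4.24%, 14.5% and 10.4% in WT and 0.320%, 0.413% and 0.601% in E861A (change -2.90, SE 0.76, limma adjusted p = 0.256). Both had at least 1565 reads per brain library. Taz, which encodes the cardiolipin-remodelling enzyme tafazzin, had 58.4%, 23.5% and 36.8% in WT and 25.4%, 40.7% and 26.7% in E861A at Taz 71531186, and all 7 Taz sites edited in brain WT were edited in E861A as well. Fnbp1, which encodes an F-BAR protein that binds formin, had 14.1%, 25.1% and 13.7% in WT brain and 3.67%, 9.54% and 8.97% in E861A brain at Fnbp1 30885904, without overlap (limma adjusted p = 0.701), and its gene was edited in all 8 tissues. In liver the same Fnbp1 site had 0.00%, 28.4% and 29.4% in WT and 70.2%, 17.1% and 45.9% in E861A (limma adjusted p = 0.435).

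Replicates lay far apart in S100pbp, Ivd and Nsun5. At S100pbp 128858467 the 2 covered brain WT libraries had 97.8% and 71.7% and the E861A libraries 51.8%, 13.3% and 52.9%, which do not overlap (change -3.91, SE 1.46, limma adjusted p = 0.653). At S100pbp 128858471, 4 bases away, the order was the opposite, with 0.283% and 24.6% in WT and 26.4%, 87.9% and 76.5% in E861A. All 12 S100pbp sites edited in brain were edited in E861A and 4 of them in WT. At Ivd 118695655, in the gene of isovaleryl-CoA dehydrogenase, the brain WT libraries had 0.00%, every read and 5.89%. At Nsun5 135849673, in the gene of an rRNA methyltransferase, 1 WT library had 0.00% and another had every read edited. Over the brain sites with a WT mean above 10%, 12 of 37 were above 10% in each covered library and 21 of 37 had a library under 1%. In E861A 16 of 30 were above 10% in each and 10 of 30 had a library under 1%. Hp1bp3, which encodes a chromatin protein, had 9 sites edited in brain WT and 2 in E861A, but 6 of the 9 exceeded 1% in no WT library other than replicate 3. Outside brain the same kind of spread was seen at Flna 71471989, in the filamin A gene, where liver libraries had 99.7% and 1.23% in WT and 99.1% and 0.00% in E861A.

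**Figure D5:**
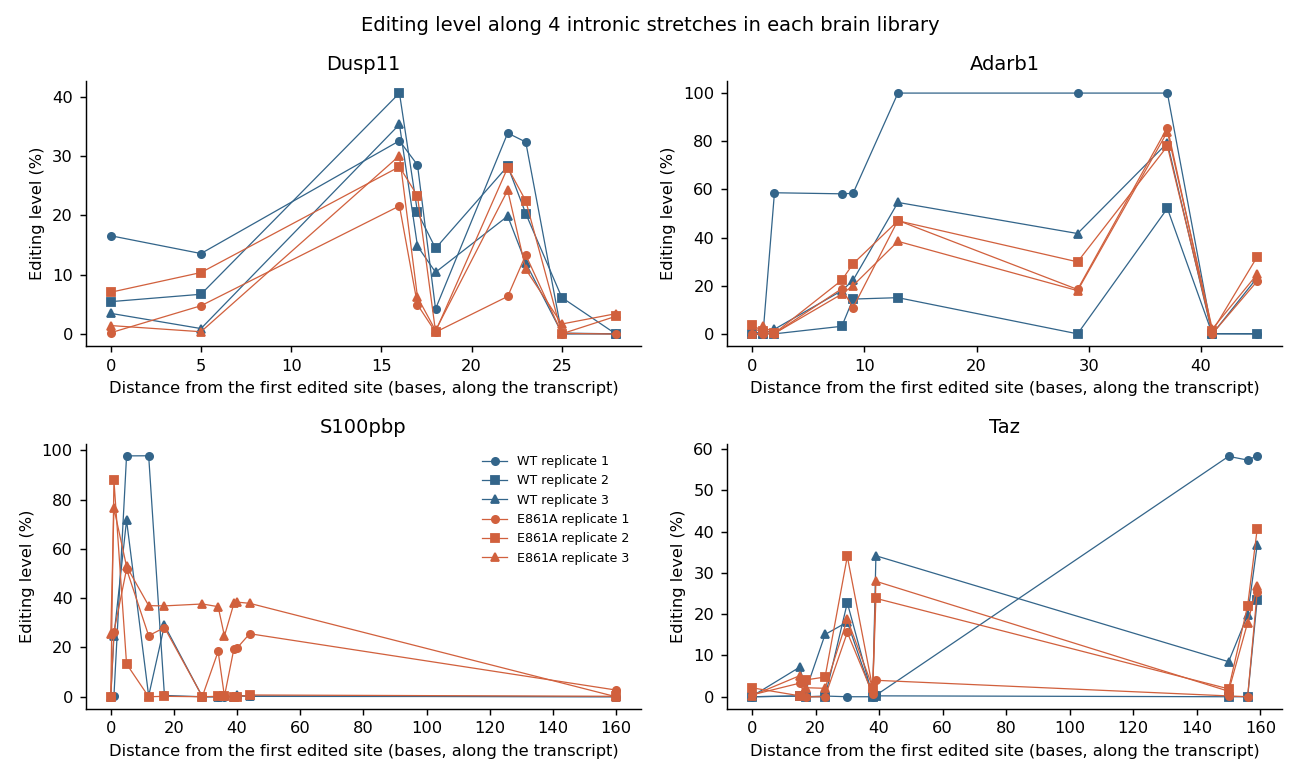
Editing level (y axis, %) of the edited sites in 4 intronic stretches in each brain library, against the distance from the first edited site along the transcript (x axis, bases). Each line is a library, blue for WT and orange for E861A. At Dusp11 85905365 all 6 libraries lie between 21.6% and 40.6%, whereas at S100pbp 128858467 they range from 13.3% to 97.8%.

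The change between genotypes was compared between brain and each other tissue with an interaction contrast over 12 libraries. Over the 7 contrasts 1 of 781 intronic tests passed. It was Dusp11 85905363 between brain and BM, where the BM levels were 0.0477% to 0.357% in all 6 libraries. The change in BM minus that in brain was 2.97 on the log2 ratio scale (SE 0.68, limma adjusted p = 0.0436). Against the other 6 tissues the same difference was 2.78 to 3.02, with limma adjusted p = 0.0717 to 0.199. Of the edited sites of all annotations, 2.99% passed against BM, 1.77% against spleen, 0.454% against thymus, 1.41% against liver, 1.76% against kidney, 0.492% against small intestine and 0.231% against heart. The contrasts share the brain libraries. The Dusp11 call was lost without WT replicate 2 (limma adjusted p = 0.0784) and without any one of the E861A libraries (0.183 to 0.240). The number of calls depended on single libraries: dropping WT replicate 1, 2 or 3 gave 14, 4 and 11, and dropping E861A replicate 1 or 3 gave 0. The shares over all sites in these fits are not given here, so the counts are not shown to be particular to intronic sites.

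Levels were also compared across the 8 tissues within each genotype, over sites covered in all of them, with limma's F test. In WT 13 of 95 intronic sites differed between tissues (17.7% of all 840 sites tested), and in E861A 29 of 80 (37.5% of all 766). At all 13 WT sites and at 28 of the 29 E861A sites brain was the highest tissue, and 9 sites passed in both genotypes. A site entered this test when its pooled level exceeded 1% in at least 1 tissue. Some had a mean above 1% in brain alone, such as Dusp11 85905363 and Spnb2 30001812 in WT (0.357% and 0.270% in the next tissue). For such sites the entry rule itself favoured brain as the highest tissue. How often brain was highest among called sites of all annotations is not given here. Without the 3 WT libraries that stood apart, 12 of 96 intronic sites passed in WT (17.6% of all 740), all 12 of them among the 13. The WT sites were 7 of Dusp11, 3 of Adarb1 and 1 each of Spnb2, Taz and uc008ebf.1. The E861A sites included 7 of Adarb1, 5 of Dusp11, 5 of Taz and 4 of Zkscan3. Dusp11 85905365 had a WT mean of 36.2% in brain, and the next tissue, liver, had 5.87% (limma adjusted p = 1.48e-05). Taz 71531186 had a WT mean of 39.6% in brain against 2.83% in kidney, the next highest (limma adjusted p = 0.000426), and in E861A 30.9% against 0.523% (limma adjusted p = 8.43e-10). For Adarb1 76786805 the order of the means in WT was brain (77.0%), kidney (40.6%) and liver (36.2%), where the kidney and liver libraries overlapped. In E861A it was brain (82.4%), liver (60.5%) and kidney (16.8%). The F test passed in both genotypes (limma adjusted p = 0.00765 and 2.98e-06), but it tests no order and no pair of tissues. The exception to brain was Fnbp1 30885904 in E861A, which was highest in liver (44.4%). When brain was left out, a test added after the data were seen, 0 of 76 intronic sites passed in WT (2.62% of all) and 3 of 61 in E861A (10.4% of all), namely Fnbp1 30885904, Adarb1 76786805 and Adarb1 76786829, each highest in liver.

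Sequence and annotation were described for features that did not enter the choice of sites. All members carry A on their strand in the reference. The base 5′ of the site was G at 53 of 226 edited intronic sites (23.5%) and at 202 of 758 covered sites that were never edited (26.7%). Among the 51 sites with a mean over 10% in either genotype in some tissue it was G at 1 (1.96%) and T at 21 (41.2%). At sites of other annotations a 5′ G preceded 16.9% of the edited and 24.4% of the never edited sites. The 3′ base was G at 39.4% of the edited and 33.0% of the never edited intronic sites. ADARs are known to disfavour a 5′ G, and these shares are given with no test because neighbouring sites share their sequence. In the antisense search the median number of matching positions was 37 at edited and 32 at never edited sites. By GENCODE class, 133 sites in retained-intron transcripts were edited (26.9% of those covered), 40 in UTRs of protein-coding transcripts (23.8%), 34 in other non-coding or nonsense-mediated decay transcripts (19.3%) and 17 in no exon (12.1%). Over the 7 tissues other than brain, 30 of 110 WT-edited entries of the retained-intron class were also edited in E861A, and 12 of 73 of the UTR class. Of the 6 called pairs, 5 were among the 108 tested in the UTR class and 1 (Gria3) among the 236 of the retained-intron class. The other classes had 53, 18 and 3 tested pairs and 0 called. The UTR calls came only from short stretches of Specc1 and Zkscan3, so they are not shown to be a trait of the class. This split by class was chosen after the data were seen.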

How the data were processed

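For each of the 48 libraries the authors deposited a table with the read count at each listed position, how many of those reads were edited, and their ratio as a rounded fraction, with no normalization. The submitters' processing notes name STAR, SAMtools and the mm9 build; versions are not given in the sources used here. Joined tables of levels were not used. The deposited fraction was recomputed from the counts, from which it differed by at most 0.0005. No 2 libraries held the same coverage. Levels were used only above 100 reads, where 0 edited reads (an upper limit of 3 counts) still allows up to 2.97%. A level of 10% has a 95% Wilson interval of 8.20% to 12.1% at 923 reads and of 5.47% to 17.3% at 101 reads. Reads carry no molecular identifiers, so these limits cover counting error only.

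Edited sites (pooled level over 1%, at least 2 libraries per genotype above 100 reads) were tested with limma 3.58.1 (R 4.3.3; lmFit, then eBayes with an intensity trend) on the log2 ratio with an offset of 0.01, the 6 libraries of a tissue at a time, 12 for an interaction and 24 for the F test within a genotype. P-values were adjusted over the edited sites of all annotations and called at 0.05. The fits were tested on simulated data with large changes only, where false calls in brain slightly exceeded the share that the threshold allows. Sequences came from NCBIM37 and classes from GENCODE vM1. Antisense matches were local alignments of 61 bases (Biopython 1.88). Tables were handled in Python 3.11.15 with pandas 2.3.3, and figures drawn with matplotlib 3.10.9.

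Sites were named by rule: up to 3 called sites per tissue and direction whose genotypes did not overlap, sites past an interaction contrast, edited sites of Adarb1 and of 9 neuronal genes, the highest WT site of each gene edited in at least 2 tissues, and sites at the coverage limit. Other sites of the same stretches were chosen after their values were seen. The members and lists were chosen with earlier results of these data known.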

Additional observations from a re-analysis of the deposited data

Results flagged for a closer look

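Dusp11 85905363 differed between tissues in its change between genotypes. In brain it was lower in all 3 E861A libraries (9.70% ± 5.14 in WT against 0.444% ± 0.143 in E861A, SD, n = 3 each), and in BM all 6 libraries lay below 0.4%. The interaction contrast between BM and brain passed (limma adjusted p = 0.0436), whereas the change within brain did not (limma adjusted p = 0.256). The contrast no longer passed without WT replicate 2 (limma adjusted p = 0.0784), without any one of the E861A libraries (0.183 to 0.240), on untransformed levels (0.408) or with the replicate number as a block (0.104 with the number shared by the genotypes, 0.160 with it taken within each genotype). Whether the low level in BM, which leaves little room for a fall, accounts for the contrast was not tested.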

How the results depend on the processing

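Fitting all 48 libraries together called 15 intronic sites lower and 20 higher in E861A in brain (15.3% and 11.5% of all edited sites), 9 and 9 in BM (40.3% and 6.69%), 3 lower in spleen (22.5%), 3 and 2 in liver (30.3% and 2.66%), 2 and 2 in kidney (20.3% and 1.5%), and 2 higher in each of small intestine (1.69%) and heart (2.24%); the cause was not tested. The 5 sites called lower in BM became 3 at more than 50 reads (both Zkscan3 sites dropped out), 2 when all 3 replicates had to be covered, 0 on untransformed levels and 8 by the quasi-binomial model, and 2 to 6 with a replicate left out (2 without WT replicate 1 or 3). The kidney count of 1 became 2 at more than 500 reads or with all 3 replicates covered, 0 with an offset of 0.05 or untransformed levels, and 0 to 8 with a replicate left out (8 without WT replicate 3, 2 other sites without E861A replicate 3, and 0 without WT replicate 2 or E861A replicate 1 or 2). An offset of 0.001 gave 1 lower site in liver. Apart from the fit over all 48 libraries, the shares over all edited sites for these changed BM, kidney and liver counts are not given here. Such counts are therefore not shown to be particular to intronic sites. Leaving out a replicate gave 0 to 1 higher in brain, and 0 to 1 lower in spleen (1 without WT replicate 3), 0 to 5 in thymus and 0 to 1 in liver (1 without WT replicate 1). The interaction count of 1 became 0 on untransformed levels and ranged from 0 to 14 with a replicate left out, where all 4 calls without WT replicate 2, 8 of 11 without WT replicate 3 and the 1 without E861A replicate 2 were at other sites and had the opposite sign. Without brain, the tissue counts of 13 and 29 became 0 and 3. The mean difference in BM changed sign, from -6.30 to 1.35 percentage points, at more than 500 reads, and that in spleen moved from -0.39 to -0.98 at more than 500 reads and -0.86 with reads pooled. At more than 500 reads it also moved in thymus (-2.63 to -1.64), small intestine (-2.73 to -1.42) and heart (-1.50 to -2.33), and in heart it was -0.63 without E861A replicate 3, and in small intestine -4.19 without WT replicate 3. Replicate numbers were not used to pair the genotypes in the main fits. Libraries with the same number correlated at -0.11 to 0.24 in their deviations from group means, and 1 of 24 correlations exceeded 0.1. The labels state no pairing, and weak correlations of such levels cannot show that there was none. With the replicate number as a block, the kidney count and the interaction count became 0, Gria3 in BM was no longer called (limma adjusted p = 0.0748), and the other genotype counts within a tissue stayed within 1.5 times. Libraries of 1 genotype with the same number in different tissues may come from 1 mouse, which the labels do not say. Their deviations correlated at a median of 0.0203 in WT and -0.0298 in E861A. With the number as a block across tissues, a fit added after the data were seen, the tissue counts of 13 and 29 became 14 and 27 and the interaction count became 0. Low depth in BM WT replicate 2 limited the BM results, and a site's edited status often rested on 1 library.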
